A study of Homo sapiens with 6 samples.

Results

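Transforming growth factor beta (TGF-beta) is secreted as a latent complex. A dimer of the cytokine stays bound to its own propeptide, which is linked to a latent TGF-beta binding protein (LTBP) and stored in the extracellular matrix until integrins, proteases or thrombospondin free it. The free ligand binds the type II receptor TGFBR2, which phosphorylates the type I receptor TGFBR1, and the signal passes to SMAD2 and SMAD3, while the co-receptor TGFBR3 (betaglycan) presents ligand, TGF-beta 2 above all. In human pluripotent stem cells the SMAD2 and SMAD3 branch is known to sustain NANOG, and the E8 medium itself carries recombinant TGF-beta 1 protein, which RNA sequencing does not measure.

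The transcripts described are those of the 3 ligands TGFB1, TGFB2 and TGFB3, the 3 receptors TGFBR1, TGFBR2 and TGFBR3, and the 4 binders LTBP1, LTBP2, LTBP3 and LTBP4. They were taken by Ensembl identifier and GENCODE 44 symbol, which gave 10 of the 19977 genes in the count tables, and all 10 had enough counts to be tested. RNA came from NCRM-1, a human induced pluripotent stem cell line of wild type genotype, grown as aggregates in bioreactors for 4 days with 50% of the medium exchanged on the second day. PEG and HS samples (n = 3) had E8 with 10 mg/ml polyethylene glycol (PEG) and 0.1 µg/ml heparin sodium salt (HS), and Control samples (n = 3) had E8 alone. The labels' protocol text describes PEG and heparin for all 6 samples, and the treatment given for each sample was followed. They also speak of each bioreactor in the singular, so an effect of the vessel cannot be told apart from that of the medium. The p-values then measure the spread between samples that may share a vessel. NCRM-1 is a single line, and no gene was altered in it.

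Libraries held 26991279 to 36185138 counts on genes. POU5F1, SOX2 and NANOG, which define pluripotent cells, were present in every library, but not at equal levels. Of 10 pluripotency markers, 7 were called, 3 higher in PEG and HS (POU5F1, NANOG and DPPA4) and 4 lower (SOX2, LIN28A, CDH1 and SALL4). Over all 16505 genes tested, 25.3% were called, and 31.3% of those with at least 1 CPM in 3 libraries. NANOG was at 126 ± 0.610 CPM in Control and 185 ± 1.76 CPM in PEG and HS (CPM is the normalised read count relative to library size, with TMM scaling), and SOX2 at 412 ± 11.8 and 273 ± 3.92 CPM (SD, n = 3). Changes in both directions offset each other in the sum of the 10, which was 8569 to 8722 CPM in Control and 8559 to 8751 CPM in PEG and HS.

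Markers of other cell types also differed between media. The counts given here stand beside 13.1% of all genes tested called lower and 12.2% called higher. A single gene held 37.6 to 85.4% of each summed level, so the sums were also taken without the most abundant gene of each list, a choice made after the data were seen. Of 10 neuroectoderm markers, 6 were lower in PEG and HS, with sums of 273 to 289 CPM against 387 to 402 CPM in Control, or 42.5 to 47.2 against 150 to 157 CPM without TUBB3. Of 9 fibroblast and mesenchyme markers tested, 4 were lower (COL1A1, COL3A1, LUM and DCN) and 1, THY1, was higher. DCN overlapped between media. It lost its call with limma-voom (adjusted p = 0.0703) and without PEG and HS replicate 1 or 2 or Control replicate 1 or 2 (adjusted p 0.0534 to 0.0912). The sum of the fibroblast and mesenchyme markers was higher in PEG and HS (568 to 603 against 490 to 529 CPM) through THY1 alone, and lower without it (171 to 180.8 against 234 to 261 CPM). Of 8 mesoderm and primitive streak markers, TBX6 and HAND1 were lower and KDR was higher. HAND1 had only 16 counts over the 6 libraries, and DESeq2 called 1 marker of this list lower. The sum of 66.4 to 69.5 CPM in PEG and HS against 61.4 to 65.6 CPM in Control likewise turned without KDR, to 7.98 to 9.46 against 9.88 to 11.2 CPM. Trophectoderm and amnion markers summed to 6.94 to 7.15 CPM in PEG and HS and 14.9 to 15.9 CPM in Control (3 of 6 tested lower, HAND1 again among them, 2 lower with DESeq2, CGA at 0), and endothelium and blood markers to 3.87 to 4.49 and 7.90 to 8.31 CPM (2 of 5 tested lower, HBG1 at 0). Endoderm markers summed to 5.19 to 5.56 CPM in PEG and HS and 6.46 to 7.26 CPM in Control, with 0 of 6 tested called by edgeR, DESeq2 or limma-voom and 1 lower in edgeR at an unadjusted p under 0.05. The sums of these last 3 lists were also lower in PEG and HS without KRT7, TEK and FOXA2. The part of these cells in the results was not tested. In bulk RNA, fewer cells of a type and less RNA per cell cannot be told apart.

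Of the 10 transcripts, 6 were lower in PEG and HS (TGFB1, TGFB2, TGFBR3, LTBP1, LTBP2 and LTBP4), 1 was higher (TGFBR2), and 3 (TGFB3, TGFBR1 and LTBP3) did not pass the threshold (Benjamini-Hochberg adjusted p below 0.05, quasi-likelihood test of edgeR). Over all 16505 genes tested, 25.3% passed, 12.2% higher and 13.1% lower. Among genes with at least 1 CPM in 3 libraries, a limit that TGFB3 did not reach, 31.3% passed. In the same 7 transcripts, and in no other of the 10, all libraries of one medium lay above all of the other, which was so for 39.3% of all genes (19.5% higher, 19.8% lower). The median log2 fold change of the 10 was -0.15, against 0.0031 over all genes tested. The differences ranged from a log2 fold change of -1.0 for TGFB2 to a 1.11-fold lower LTBP1 among the 7 called, and only TGFB2 and LTBP2 differed by more than 1.5-fold.

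**Figure D1:**
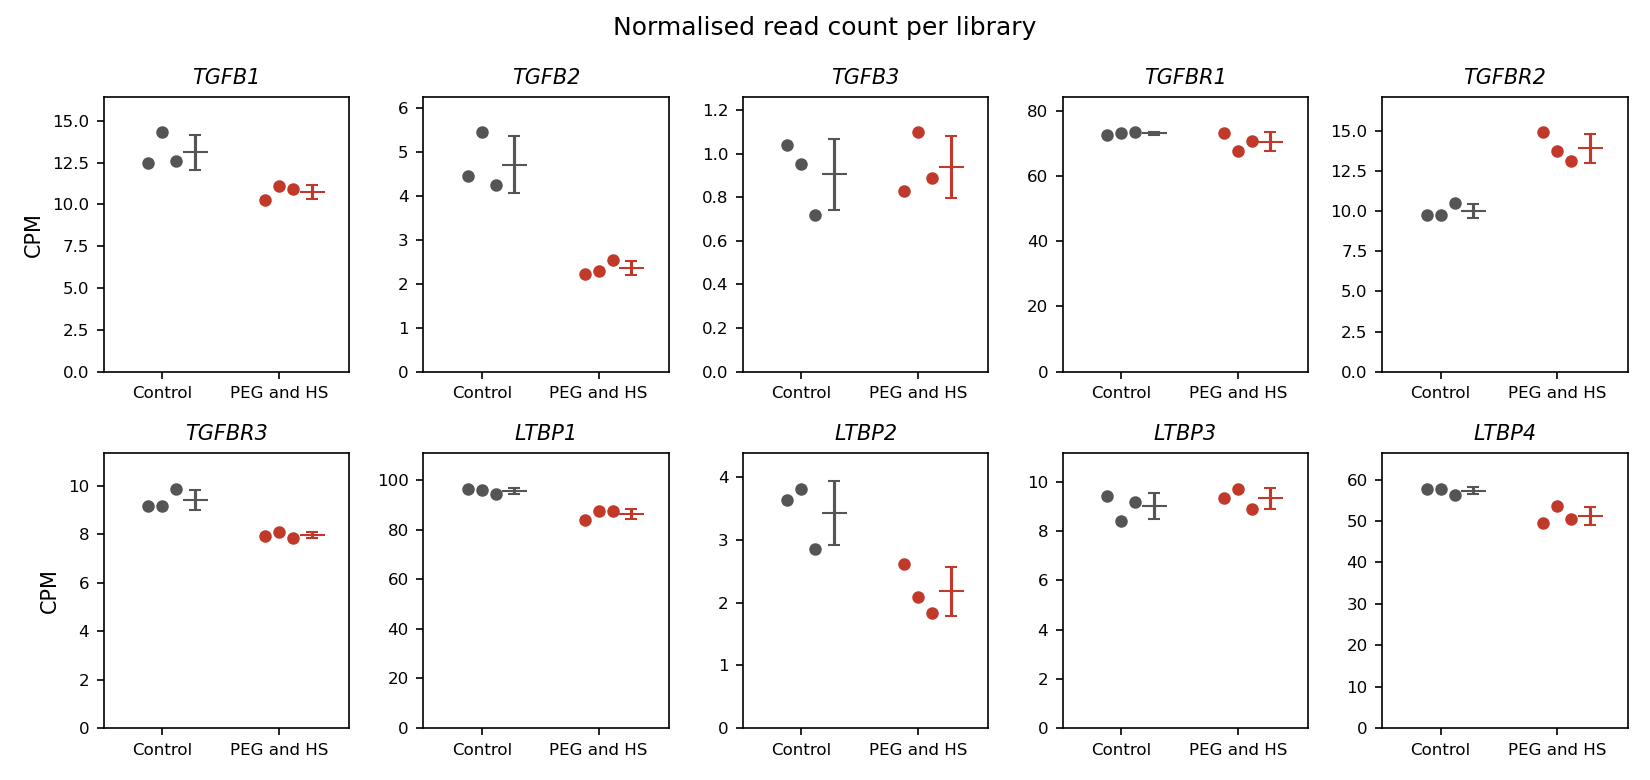
Normalised read count in CPM of each transcript (y axis from 0) in the 3 Control libraries (grey) and the 3 PEG and HS libraries (red), with mean ± SD beside the points. TGFB2 shows the widest separation in proportion to its level, from 2.22 to 2.54 CPM in PEG and HS against 4.24 to 5.45 CPM in Control, and TGFBR2 is the one transcript with all PEG and HS libraries above Control.

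TGFB2, the ligand that depends most on TGFBR3 for receptor binding, showed the largest difference. Its transcript (ENSG00000092969, chromosome 1, 218345336 to 218444619 of GRCh38, plus strand) had normalised read counts of 4.45, 5.45 and 4.24 CPM under Control, and of 2.22, 2.30 and 2.54 CPM under PEG and HS. Every PEG and HS library lay below every Control library, with means of 2.36 ± 0.166 and 4.71 ± 0.646 CPM (SD, n = 3). The log2 fold change was -1.0 with an SE of 0.138 (adjusted p = 6.51e-05), and 4.60% of all genes tested differed by more. These values rest on 65 to 86 counts per library in PEG and HS and at least 120 in Control. The antisense gene TGFB2-AS1 covers 11.6% of the exon sequence of TGFB2, and TGFB2-OT1 on the same strand covers 22.7%. Neither has a row of its own in the tables, so their reads, where counted, could not be separated.

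TGFB1 (ENSG00000105329, chromosome 19, 41301587 to 41353922, minus strand) encodes the ligand that E8 supplies as protein. Control libraries held 12.5, 14.3 and 12.6 CPM of it, PEG and HS libraries 10.3, 11.1 and 10.9 CPM. The media did not overlap, though the spread in Control was wider (SD 1.04 against 0.413 CPM). The transcript was 1.22-fold lower in PEG and HS, a log2 fold change of -0.29 with an SE of 0.073 (adjusted p = 0.00848). An exon of HNRNPUL1 on the opposite strand covers 6.59% of its exon sequence.

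TGFB3 (ENSG00000119699, chromosome 14, 75958097 to 75983011, minus strand), the ligand known for its part in palate closure, was the least abundant of the 10 per length. Raw counts were 28, 31 and 30 under PEG and HS and 28, 31 and 26 under Control, or 0.830, 1.10 and 0.886 CPM against 1.04, 0.954 and 0.721 CPM. The libraries of the media were interleaved. A difference was not detectable at this depth, since the 95% interval of the log2 fold change ran from -0.52 to 0.63 around 0.057 (adjusted p = 0.909).

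The receptor TGFBR2 (ENSG00000163513, chromosome 3, 30606601 to 30694142, plus strand), the ligand-binding kinase of the pathway, went the other way. PEG and HS libraries held 14.9, 13.7 and 13.1 CPM of it, Control libraries 9.75, 9.76 and 10.5 CPM. All PEG and HS libraries lay above all Control libraries, with means of 13.9 ± 0.913 and 10.0 ± 0.433 CPM (SD, n = 3). The transcript was 1.39-fold higher, at a log2 fold change of 0.47 with an SE of 0.071 (adjusted p = 0.000138), and 14.1% of all genes differed by more.

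TGFBR1 (ENSG00000106799, chromosome 9, 99104038 to 99154192, plus strand) encodes the type I kinase that TGFBR2 activates. Its 73.4, 67.6 and 70.7 CPM in PEG and HS overlapped the 72.6, 73.2 and 73.4 CPM in Control. With 1911 to 2649 counts per library the estimate was narrow, at a log2 fold change of -0.049 with a 95% interval of -0.12 to 0.026 (adjusted p = 0.352).

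TGFBR3 (ENSG00000069702, chromosome 1, 91680343 to 91906335, minus strand), which binds ligand but has no kinase, gave 9.19, 9.17 and 9.89 CPM under Control and 7.92, 8.10 and 7.86 CPM under PEG and HS. The media were apart and the difference was 1.19-fold, lower in PEG and HS, with a log2 fold change of -0.25 and an SE of 0.073 (adjusted p = 0.0227). This call was the least firm of the 7. DESeq2 gave an adjusted p of 0.108, and in edgeR it rose to 0.068 without PEG and HS replicate 1, to 0.0611 without PEG and HS replicate 3 and to 0.095 without Control replicate 3.

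LTBP2 (ENSG00000119681, chromosome 14, 74498183 to 74612378, minus strand) is the LTBP that is known not to bind latent TGF-beta, and is a matrix protein of elastic fibres and the ciliary zonule. It had the largest difference of the 4 LTBP transcripts. It gave 2.61, 2.09 and 1.83 CPM under PEG and HS and 3.63, 3.82 and 2.85 CPM under Control, whose replicate 3 lay closest to the PEG and HS range without entering it. The transcript was 1.57-fold lower in PEG and HS, with a log2 fold change of -0.65 and an SE of 0.169 (adjusted p = 0.0103). Without Control replicate 2 the adjusted p was 0.0526.

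The binders that hold most of the LTBP transcripts fell by little. LTBP1 (ENSG00000049323, chromosome 2, 32946953 to 33399509, plus strand), which anchors the latent complex to fibrillin and fibronectin, gave 96.6, 95.9 and 94.5 CPM under Control and 84.0, 87.5 and 87.7 CPM under PEG and HS. The replicates lay close together and the media did not overlap, at a 1.11-fold lower level in PEG and HS, with a log2 fold change of -0.15 and an SE of 0.031 (adjusted p = 0.00261). LTBP4 (ENSG00000090006, chromosome 19, 40592883 to 40629818, plus strand), which is known to bind the TGF-beta 1 complex and to assist elastic fibre assembly, gave 57.7, 57.8 and 56.3 CPM under Control and 49.6, 53.6 and 50.6 CPM under PEG and HS. It too was separated by medium, 1.12-fold lower at a log2 fold change of -0.16 with an SE of 0.038 (adjusted p = 0.00584).

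LTBP3 (ENSG00000168056, chromosome 11, 65538559 to 65558930, minus strand), a binder with a known part in bone and tooth growth, did not follow. It gave 9.45, 8.43 and 9.17 CPM under Control and 9.37, 9.73 and 8.89 CPM under PEG and HS, and the media overlapped. Its log2 fold change of 0.049 had a 95% interval of -0.11 to 0.21 (adjusted p = 0.694), which leaves out a fall of the size seen in LTBP1 but not a smaller one.

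Against a threshold of a 1.2-fold change, TGFB2 (adjusted p = 0.000618) and TGFBR2 (adjusted p = 0.0225) stayed called and the other 5 did not. Short stretches shared with other genes reached at most 2.40% of the transcript sequence (31-base words, TGFBR3) outside TGFB2, where 22.2% was shared, nearly all of it with TGFB2-OT1.

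**Figure D2:**
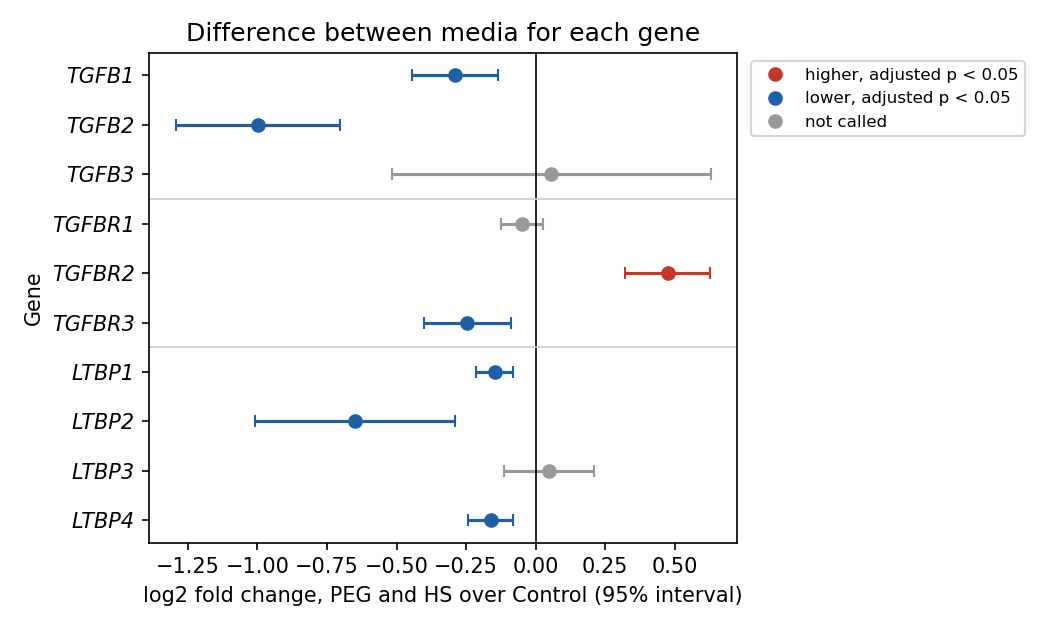
Log2 fold change of PEG and HS over Control for each transcript (points) with its 95% interval (bars), ligands at the top, receptors in the middle and latent binders at the bottom. Intervals of the 6 lower transcripts (blue) and of TGFBR2 (red, 0.32 to 0.63) lie clear of 0, and that of TGFB3 is the widest among the 3 not called (grey).

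The start of TGFB2, the transcript that fell most, and that of TGFBR2, the transcript that rose, are shown for the 250 bases before the first base of the main annotated transcript (RefSeq, GRCh38.p14, plus strand for both, chr1:218345086-218345335 and chr3:30606351-30606600). Capitals mark matches on either strand to the SMAD-binding letters GTCTG, the cAMP response element core TGACGT, the E-box CACGTG, the GC box GGGCGG, the AP-1 letters TGAGTCA and the TEAD letters GGAATG.
TGFB2: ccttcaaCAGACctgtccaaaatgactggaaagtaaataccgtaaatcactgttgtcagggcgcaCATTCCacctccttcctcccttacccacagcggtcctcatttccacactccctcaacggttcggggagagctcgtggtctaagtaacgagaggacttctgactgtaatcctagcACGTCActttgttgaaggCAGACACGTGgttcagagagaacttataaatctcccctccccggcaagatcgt
TGFBR2: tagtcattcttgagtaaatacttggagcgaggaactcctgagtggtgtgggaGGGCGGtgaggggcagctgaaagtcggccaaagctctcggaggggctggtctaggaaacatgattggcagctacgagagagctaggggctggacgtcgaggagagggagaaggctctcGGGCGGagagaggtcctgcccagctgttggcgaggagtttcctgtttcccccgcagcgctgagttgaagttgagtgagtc

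The TGFB2 window held 1 cAMP response element core 71 to 66 bases before the start and 1 E-box at 49 to 44 bases, which shares its first base with 1 of 2 SMAD-binding matches, and it also held 1 TEAD match. The comparison was with 21584 RefSeq promoter windows of the same length from genes in the count tables. Of these, 8.07% held the cAMP response element core, 7.38% the E-box, 37.3% the SMAD-binding letters and 10.5% the TEAD letters. The TGFBR2 window held only 2 GC boxes, found in 54.3% of windows, and neither window held the AP-1 letters (3.46% of windows). GC content was 50.4% in the TGFB2 window and 58.4% in that of TGFBR2. Whether any factor binds there was not measured.

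Levels were compared between genes as TPM, that is counts divided by the merged exon length and scaled to a fixed sum per library. In Control the order was LTBP1 (50.5 ± 0.523 TPM, SD, n = 3), TGFBR1 (35.4 ± 0.306), LTBP4 (27.4 ± 0.289), TGFB1 (15.6 ± 1.13), TGFBR2 (5.66 ± 0.273), TGFBR3 (4.26 ± 0.207), LTBP3 (3.03 ± 0.194), TGFB2 (3.02 ± 0.393), LTBP2 (1.47 ± 0.211) and TGFB3 (0.671 ± 0.120). The order was the same in PEG and HS, where LTBP1 was at 46.5 ± 1.21 TPM and TGFB3 at 0.710 ± 0.105 TPM. Neighbours in this order lay apart in every library except LTBP3 and TGFB2 in Control and LTBP2 and TGFB3 in PEG and HS, whose ranges overlapped. In PEG and HS, TGFB2 (1.54 ± 0.115 TPM) lay 2.08-fold below LTBP3 (3.20 ± 0.131 TPM). With the longest annotated transcript as the length, LTBP4 (32.5 TPM) passed TGFBR1 (32.1 TPM) in Control, and LTBP3 came to 5.33 TPM in Control and 5.62 TPM in PEG and HS, above TGFBR3 in both media and above TGFBR2 in Control. TGFB3 then passed LTBP2 in PEG and HS.

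Within each family, shares of the summed TPM do not depend on the scaling between libraries. A change in any gene of a family moves the shares of the others. TGFB1 made up 80.3, 80.2 and 82.1% of ligand transcripts in Control and 85.7, 85.2 and 85.0% in PEG and HS. The share of TGFB2 was 15.6 ± 0.778% in Control and 10.1 ± 0.576% in PEG and HS (SD, n = 3), and its libraries did not overlap between media. TGFB3 took 3.49 ± 0.635% in Control and 4.64 ± 0.550% in PEG and HS, with the ranges just apart. The level of TGFB3 was not called different. The summed ligand level was 19.3 ± 1.54 TPM in Control and 15.3 ± 0.659 TPM in PEG and HS.

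Among the receptors TGFBR1 held most of the transcripts, with 78.1 ± 0.673% in Control and 74.9 ± 0.809% in PEG and HS. The level of TGFBR1 was not called different. TGFBR2 took 12.3, 12.2 and 12.9% in Control and 17.7, 17.6 and 16.4% in PEG and HS, so that its share was higher in every PEG and HS library. TGFBR3 held 9.38 ± 0.291% and 7.88 ± 0.383%. The receptor sum was 45.3 ± 0.785 TPM in Control and 46.6 ± 1.76 TPM in PEG and HS, with overlapping libraries.

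The make-up of the LTBP family differed less. LTBP1 took 61.3 ± 0.173% in Control and 61.5 ± 0.777% in PEG and HS, and LTBP4 33.2 ± 0.158% and 33.0 ± 0.609%, with overlap for both. LTBP2 was at 1.78 ± 0.245% and 1.26 ± 0.254%, again with overlap. LTBP3 had 3.68 ± 0.220% in Control and 4.24 ± 0.178% in PEG and HS, without overlap, while its level was not called different. The summed LTBP level was 82.3 ± 0.993 TPM in Control and 75.6 ± 1.85 TPM in PEG and HS. For each of these 10 shares the smallest two-sided p that an exact permutation test of 3 libraries against 3 allows is 0.1, which the 7 shares without overlap reached (adjusted p = 0.143 over the 10), so none could pass a threshold of 0.05.

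**Figure D3:**
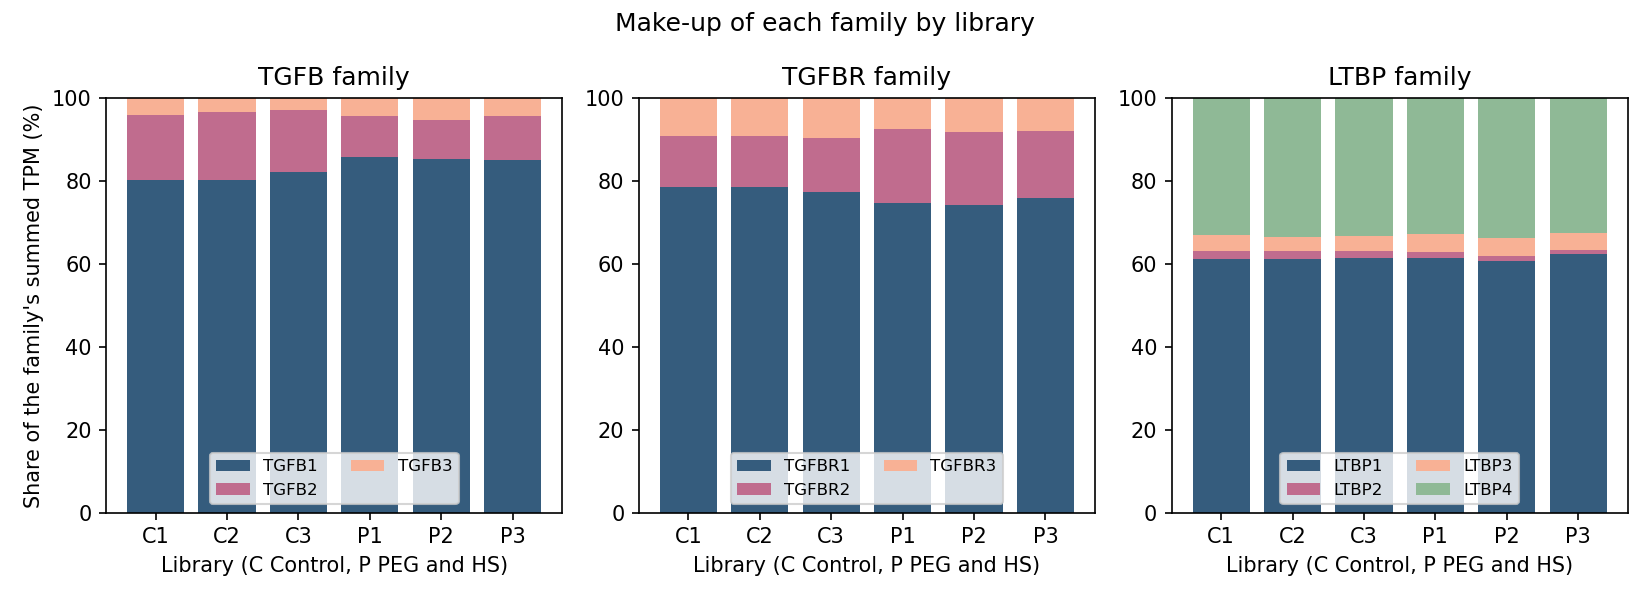
Share of each gene in the summed TPM of its family (y axis, %) in the Control libraries C1 to C3 and the PEG and HS libraries P1 to P3. In the TGFB panel the TGFB2 band spans 14.9 to 16.5% in Control and 9.54 to 10.7% in PEG and HS, in the TGFBR panel the TGFBR2 band is wider in each PEG and HS library, and the LTBP panel is nearly even.

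By the distance between centred log2 CPM values over the 6 libraries, the genes most like TGFB2 among 13557 with a mean of at least 1 CPM were GADD45G (distance 0.140), a growth arrest and DNA damage inducible gene, LRRC4B (0.182), a synaptic adhesion gene, and CAVIN1 (0.183), a caveola coat gene. Each was lower in PEG and HS, with log2 fold changes of -1.04, -1.08 and -0.97. GADD45G was at 3.45, 3.82 and 3.24 CPM in Control and 1.57, 1.73 and 1.80 CPM in PEG and HS, which like TGFB2 puts replicate 2 highest among the Control libraries. These genes were picked for likeness to TGFB2 over the same 6 libraries, so shared direction and replicate order follow from the choice.

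The rest of the pathway was described from 5 lists of 90 genes in all, chosen with earlier results of these data known. Of these, 87 were tested and 35 passed (40.2%), 15 higher and 20 lower in PEG and HS. This stands beside 25.3% of all genes, and 31.3% of those with at least 1 CPM in 3 libraries. Of all genes tested, 12.2% were higher and 13.1% lower, and these shares stand beside the counts of each list below. Genes that free or hold the latent complex were mixed, with 5 of 17 higher and 3 lower. ITGB8 and THBS1, an integrin subunit gene and a thrombospondin gene, were lower. ITGB8 was at 6.78 ± 0.247 CPM in Control and 3.75 ± 0.275 CPM in PEG and HS (adjusted p = 1.24e-05). THBS1 was at 26.4 ± 1.38 and 17.6 ± 1.61 CPM (adjusted p = 7.7e-06). The urokinase gene PLAU was also called lower (log2 fold change -0.23), and this call was lost with DESeq2 (adjusted p = 0.0858) and when any 1 of the 5 libraries other than PEG and HS replicate 3 was left out (adjusted p 0.0558 to 0.125). ITGB5, another integrin subunit, rose from 131 ± 5.60 to 161 ± 3.09 CPM (adjusted p = 7.18e-06), as did the BMP1-like protease gene TLL2 (log2 fold change 0.47). ITGB1 (log2 fold change 0.26, adjusted p = 1.84e-06) and MMP2 (log2 fold change 0.28, adjusted p = 2.8e-05) of this list were also called higher. The gelatinase gene MMP9 (log2 fold change 0.59, adjusted p = 0.0206) lost its call without PEG and HS replicate 1 or 2 and without Control replicate 1 or 2 (adjusted p 0.0580 to 0.0886). ITGB6, PLG and KLK3 had too few counts to be tested.

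Of the 16 matrix partners of the LTBPs, 4 were higher and 3 lower. FBN1, a fibrillin to which LTBP1 binds, was lower (12.6 ± 1.08 CPM in Control, 8.90 ± 0.706 CPM with PEG and HS, log2 fold change -0.51, adjusted p = 0.000252), as were the elastic fibre genes EFEMP2 (log2 fold change -0.48) and MFAP2 (log2 fold change -0.19). The fibrillin genes FBN2 (95.3 CPM in Control, 98.5 CPM in PEG and HS) and FBN3 (134 and 136 CPM) had more reads and were not called. EFEMP1 (log2 fold change 0.45), the protease gene ADAMTS10 (0.35) and the fibulin gene FBLN2 (0.30) were higher. FBLN1 was also called higher (log2 fold change 0.10, adjusted p = 0.0495), but its libraries overlapped. Its call was lost with RLE scaling (adjusted p = 0.0545) and with upper quartile scaling (adjusted p = 0.0850). It was also lost without PEG and HS replicate 2 or 3 or Control replicate 1 or 3 (adjusted p 0.0854 to 0.198). Of 14 co-receptors and ligand traps, 1 was higher, BAMBI, a decoy receptor (log2 fold change 0.29, adjusted p = 0.00226), and 3 were lower. These were VASN, a soluble TGF-beta trap (log2 fold change -0.41, adjusted p = 0.00296), the protease gene HTRA1 (-0.35) and DCN. The call of DCN was not firm, as given with the fibroblast and mesenchyme markers.

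Of 20 genes of SMAD signal transduction, 5 were higher and 1 lower, beside 12.2% and 13.1% of all genes tested. SMAD7, an inhibitory SMAD, gave 25.1, 25.4 and 23.6 CPM under Control and 39.6, 41.8 and 40.9 CPM under PEG and HS. Its libraries were apart, at a log2 fold change of 0.73 with an SE of 0.046 (adjusted p = 1.37e-08). SKIL, a co-repressor that binds SMADs, was at 246, 235 and 244 CPM in PEG and HS against 150, 145 and 163 CPM in Control, a log2 fold change of 0.66 with an SE of 0.038 (adjusted p = 4.72e-09). PMEPA1, which sequesters SMAD2 and SMAD3, was higher as well (log2 fold change 0.33, adjusted p = 0.000449). All 3 restrain the pathway, and all 3 are known to be induced by it. SMAD3, which carries the signal, was also called higher, at 39.8 ± 0.413 against 35.9 ± 0.964 CPM in Control (adjusted p = 0.0154). Its rise was small (log2 fold change 0.15), and the call was lost without Control replicate 1 (adjusted p = 0.0540) or 3 (adjusted p = 0.0520). PPM1A rose as well (log2 fold change 0.27, adjusted p = 0.000389), while SMAD2 was not called (adjusted p = 0.0884). SMAD4, the shared partner SMAD, was lower (126 ± 0.290 CPM in Control, 103 ± 0.999 CPM with PEG and HS, log2 fold change -0.30, adjusted p = 1.37e-06).

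Of the 20 other transcripts listed as induced by TGF-beta, 10 were lower and 0 higher in edgeR at the adjusted threshold (1 higher at an unadjusted p under 0.05, and 0 higher and 9 lower with DESeq2). Over all genes tested, 13.1% were lower and 12.2% higher. The median log2 fold change of the 20 was -0.31. The 3 that fell most were IGFBP3 (45.3 ± 5.78 to 17.2 ± 2.49 CPM), a binder of insulin-like growth factors, VIM (55.1 ± 5.93 to 25.4 ± 2.53 CPM), an intermediate filament gene, and COL1A1 (120.2 ± 5.23 to 60.1 ± 3.02 CPM), a collagen chain gene. Each fell without overlap, with log2 fold changes of -1.40, -1.12 and -1.0 and adjusted p-values of 2.89e-08, 3.56e-08 and 9.67e-11. COL1A1 and COL1A2, which was not called (adjusted p = 0.0989), are also among the 10 fibroblast and mesenchyme markers. Of the 9 markers tested there, 4 were lower in PEG and HS and 1, THY1, was higher.

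**Figure D4:**
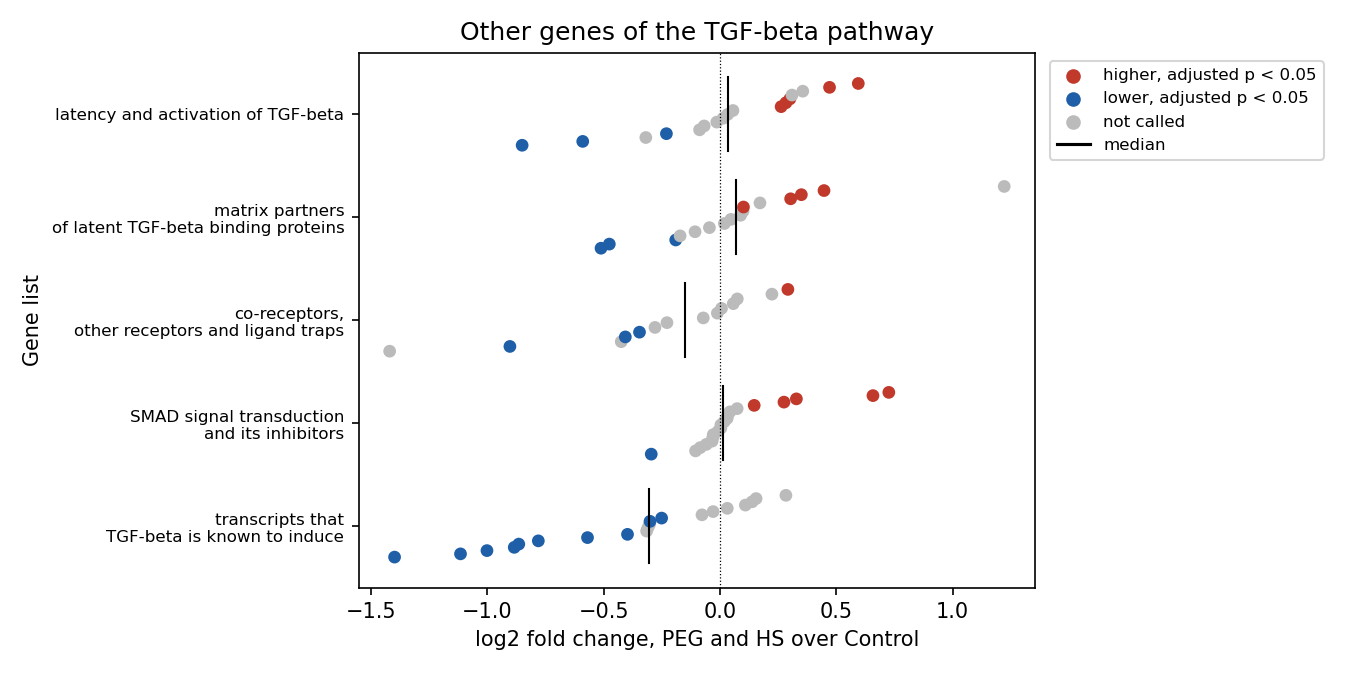
Log2 fold change of PEG and HS over Control (x axis) for the 87 tested genes of 5 pathway lists (y axis), with genes called higher in red, called lower in blue and not called in grey, and the median of each list as a black line. The medians of the first 4 lists lie between -0.15 and 0.068, and that of the induced transcripts at -0.31.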

How the data were processed

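RNA was enriched for polyadenylated transcripts, sequenced from stranded libraries, trimmed with Trim Galore 0.6.7 and mapped to GRCh38 with STAR 2.6.1 inside nf-core/rnaseq. The authors deposited raw counts per Ensembl gene, one table per library, without normalization. The counting tool, its use of strand and the annotation release are not given in the sources used here. Of 19977 identifiers, 19916 matched GENCODE 44.

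Of these, 16505 reached a sum of 10 counts over the 6 libraries and were tested. After TMM scaling (factors 0.994 to 1.006), edgeR 4.0.16 under R 4.3.3 was used (glmQLFit and glmQLFTest without covariates). The p-values were Benjamini-Hochberg adjusted over all tested genes, with a threshold of 0.05. Each SE was derived from the log2 fold change and its F statistic. The common biological coefficient of variation was 3.12%. No library was a copy of another (chi-square divided by its degrees of freedom 2.61 to 3.60 between replicates). The scripts were tested on simulated data. TPM used merged exon lengths. The members and lists were chosen with earlier results of these data known. Genes named are the 10 members and, per list, the up to 3 largest called changes in each direction without overlap whose higher medium reached 1 CPM in every library. Also named were the 3 genes nearest to TGFB2, and POU5F1, SOX2 and NANOG. Other genes were named outside this rule, among them further cell type markers and list genes with too few counts to test. They include ITGB1, MMP2, FBLN1, SMAD3, PPM1A, FBN2, FBN3 and COL1A2. Of the markers, HAND1 did not reach 1 CPM and DCN overlapped between media. Alternatives were DESeq2 1.42.0, limma-voom (limma 3.58.1), 3 other scalings, 2 other filters, other thresholds, a replicate block, another gene length and each library left out.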

Additional observations from a re-analysis of the deposited data

How the results depend on the processing

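The 7 called transcripts kept their direction under all 16 alternatives, and TGFB2 and TGFBR2 also stayed called under all of them. The 1.2-fold threshold and the adjusted p under 0.01 keep the main fold changes, so direction could not differ there. Tested against a 1.2-fold change, 2 of the 10 were called (1 lower and 1 higher), and 12 of the other pathway genes (3 higher, 9 lower). With each library left out, 6 to 7 of the 10 were called (5 to 6 lower, 1 higher), as were 31 to 35 pathway genes (12 to 15 higher, 16 to 22 lower). The replicate block called the same 7 in number, 36 pathway genes and 4444 genes in all, against 4173 without it. Deviations of same-numbered libraries correlated at -0.015 to 0.060, within the -0.094 to 0.063 of differently numbered ones. With so few libraries this cannot settle whether replicate numbers pair them. Over all genes, 868 passed against a 1.2-fold change and 2601 at an adjusted p under 0.01. TGFB3, which was not called and was not tested at a filter of 1 CPM in 3 libraries, changed sign without PEG and HS replicate 2 and without Control replicate 3. The TGFB1 share difference was 4.40 points by merged exons and 3.57 by longest transcript, and that of LTBP3 0.551 and 0.949 points. Depth limits TGFB3, with at most 31 counts per library.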
